A study of Mus musculus with 9 samples.

Results

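The cells described here held transcripts of Gad1 or Gad2, of Ebf1 and of Foxp1, and were found in single-cell RNA-seq libraries of embryonic mouse neocortex. They were chosen by their own transcript counts. A cell was taken if it held at least 1 unique molecular identifier (UMI, the tag that marks 1 captured transcript) of Gad1 or Gad2, of Foxp1, of Ebf1 and of 1 or more of Isl1, Tac1 and Rxrg. It also had to hold no UMI of Neurod2, Neurod6, Top2a, Mki67 or Lhx6, and haemoglobin genes could take no more than 1% of its UMIs. Of 22147 deposited cells 19686 passed the haemoglobin limit, and 50 of those met the rule. They are called Ebf1 cells below.

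The study compared wildtype (WT) embryos with Tcf4 knockout (KO) littermates of the Tcf4ex4WT/lacZ line shortly before birth (E18.5), in 5 WT and 4 KO libraries of neocortex, both sexes included. KO embryos carried on both alleles a lacZ/neomycin cassette inserted before exon 4, which removes the long TCF4 isoform and leaves shorter isoforms in place. Every embryo came from breedings of Tcf4 haploinsufficient mice, and no embryo received a treatment. The study's methods treat each library as 1 mouse.

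Direct-pathway neurons of the striatum are GABAergic projection neurons that send their axons to the substantia nigra and carry the dopamine receptor Drd1 together with the peptides substance P (from Tac1) and dynorphin (from Pdyn). Indirect-pathway neurons project to the globus pallidus, and are marked by Drd2, Adora2a and the enkephalin gene Penk. Both arise in the lateral ganglionic eminence, where Ebf1 and Isl1 act in the direct-pathway lineage and Six3 and Sp9 in the indirect-pathway lineage. Neither type is a resident of the neocortex, the tissue named in the labels, and 4501 of the 6173 cells kept in the largest library held Neurod6, a marker of cortical glutamatergic neurons.

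Ebf1, an early B-cell factor, lies on chromosome 11 from 44617317 to 45008091 (plus strand, GRCm38, GENCODE vM21 annotation). Isl1, a LIM homeodomain factor, lies on chromosome 13 from 116298281 to 116309689 on the minus strand. Foxp1, a forkhead factor of striatal projection neurons, spans 98925338 to 99522721 of chromosome 6 on the minus strand. Tac1 lies on the same chromosome from 7554879 to 7565834 on the plus strand. The retinoid X receptor gene Rxrg lies on chromosome 1 from 167598384 to 167639623, also on the plus strand.

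The 50 Ebf1 cells were spread very unevenly over the libraries. WT4 held 43 of its 6173 kept cells, WT3 held 3 of 1617, WT2 held 1 of 1185 and WT5 held 1 of 3630. WT1 held 0 of 127 cells. Among the KO libraries KO4 held 2 of 4201, while KO1 held 0 of 332, KO2 held 0 of 118 and KO5 held 0 of 2303. WT4 therefore supplied 86.0% of the Ebf1 cells and 31.4% of the kept cells. It was also the deepest library, with a median of 4359 UMIs per kept cell, against medians of 2217 to 3636 elsewhere, and its lowest deposited cell held 2549 UMIs against 1799 to 2265. KO4 and KO5 lost 677 and 1561 cells to the haemoglobin limit, and the other libraries 2 to 140.

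Transcripts of Tcf4, the targeted gene, ran against the labels in part. Over all kept cells the summed level was 12.4 to 12.6 UMIs per 10000 UMIs in WT2, WT3 and WT4, and 9.33 in KO4 and 7.58 in KO5. The library labelled KO1 stood at 17.4 and KO2 at 8.73, while the libraries labelled WT5 and WT1 stood at 7.17 and 4.83. Reads from the 3′ end also count the shorter isoforms, so the level is only a partial check of genotype. WT2, WT3 and WT4 were compared with KO4 and KO5, taken as the 3 WT and 2 KO samples the study kept. Its methods drop samples without more than 500 cells after filtering, and 1 WT animal whose Tcf4 lay below the KO, without naming libraries. WT1, KO1 and KO2 had 131, 347 and 120 deposited cells. Values for all 9 libraries are given beside that comparison. Pairs of libraries shared 0 to 46 cell barcodes, and no barcode of an Ebf1 cell occurred in another library.

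**Figure D1:**
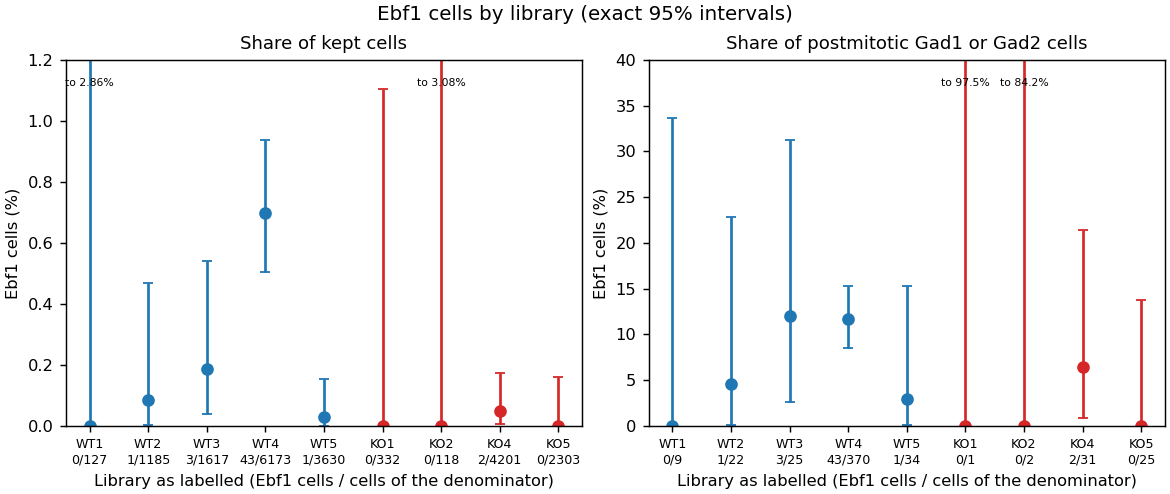
Ebf1 cells as a percentage of kept cells (left) and of postmitotic Gad1 or Gad2 cells (right) in each library as labelled, WT in blue and KO in red, with exact 95% binomial intervals. Points show 1 library each, and intervals that run past the axis have their upper end written in. WT4 stands highest on the left at 0.697%, while on the right WT3 at 12% and WT4 at 11.6% lie close together.

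As a share of kept cells, Ebf1 cells made up 0.0844% of WT2 (exact 95% binomial interval 0.00214% to 0.469%), 0.186% of WT3 (0.0383% to 0.541%) and 0.697% of WT4 (0.505% to 0.937%). The share in KO4 was 0.0476% (0.00577% to 0.172%), and the 0 of 2303 cells in KO5 allow up to 0.130%, the share that 3 cells would give (exact upper bound 0.160%). The interval of WT4 did not meet that of KO4 or KO5. Those of WT2 and WT3 overlapped both. All such intervals here cover counting error only. WT libraries averaged 0.322% ± 0.328 (SD, n = 3) and KO libraries 0.0238% ± 0.0337 (SD, n = 2), and KO minus WT came to -0.298 percentage points. An exact two-sided permutation test gave p = 0.3, where 0.1 is the smallest p that 3 against 2 libraries allow. The difference rested largely on WT4: without it WT libraries averaged 0.135% and the difference became -0.111 percentage points. Over all libraries as labelled the means were 0.199% ± 0.287 (SD, n = 5) and 0.0119% ± 0.0238 (SD, n = 4), with an exact permutation p = 0.238.

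Postmitotic cells with Gad1 or Gad2 as a whole were also more frequent in WT4 than in the other 4 libraries compared. Cells with Gad1 or Gad2 and none of Neurod2, Neurod6, Top2a and Mki67 made up 5.99% of its kept cells, against 1.86% in WT2, 1.55% in WT3, 0.738% in KO4 and 1.09% in KO5. Of the libraries not compared, WT1 stood at 7.09% (interval 3.29% to 13.0%) over 127 cells, WT5 at 0.937%, KO1 at 0.301% and KO2 at 1.69%. Taken as a share of those cells, Ebf1 cells were 1 of 22 in WT2 (4.55%), 3 of 25 in WT3 (12%) and 43 of 370 in WT4 (11.6%, interval 8.54% to 15.3%). In KO4 they were 2 of 31 (6.45%) and in KO5 0 of 25, which allows up to 12% by 3 cells and 13.7% by the exact upper bound. The WT mean on this scale was 9.39% ± 4.20 (SD, n = 3) and the KO mean 3.23% ± 4.56 (SD, n = 2), with an exact permutation p = 0.3. The values of the 2 genotypes overlapped, since WT2 lay below KO4. With every cell thinned to 1800 UMIs before the rule was applied, 24 cells met it. Of these 21 were in WT4 (0.340% of kept cells), 1 each in WT2, WT3 and KO4, and none in KO5. Thinning can also take away the UMIs of a barred gene, so these cells need not all be among the Ebf1 cells above.

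The 7 Ebf1 cells outside WT4 held 1947 to 3440 UMIs. The WT2 cell held 6 UMIs of Ebf1, 6 of Foxp1, 1 of Isl1, 6 of Meis2 and 3 of Foxp2. Of the WT3 cells, 1 held 19 UMIs of Ebf1 and 5 of Isl1, another 12 of Foxp1 and 11 of Meis2, and the last 3 of Ebf1 beside 1 of Tbr1. The WT5 cell held 5 UMIs each of Ebf1, Foxp1 and Meis2. The KO4 cells, with 2020 and 2065 UMIs, met the rule by a narrow margin. Each held 1 UMI of Foxp1, 1 of Gad2 and 1 of Rxrg, with 3 and 2 UMIs of Ebf1 and none of Isl1. Both also held UMIs of Tbr1, a factor of cortical glutamatergic neurons, and 1 of them 4 UMIs of Sst, an interneuron peptide. With these cells alone, expression in Ebf1 cells could not be compared between genotypes, and the values that follow are from WT4. One library gives no test between conditions or cell classes.

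**Figure D2:**
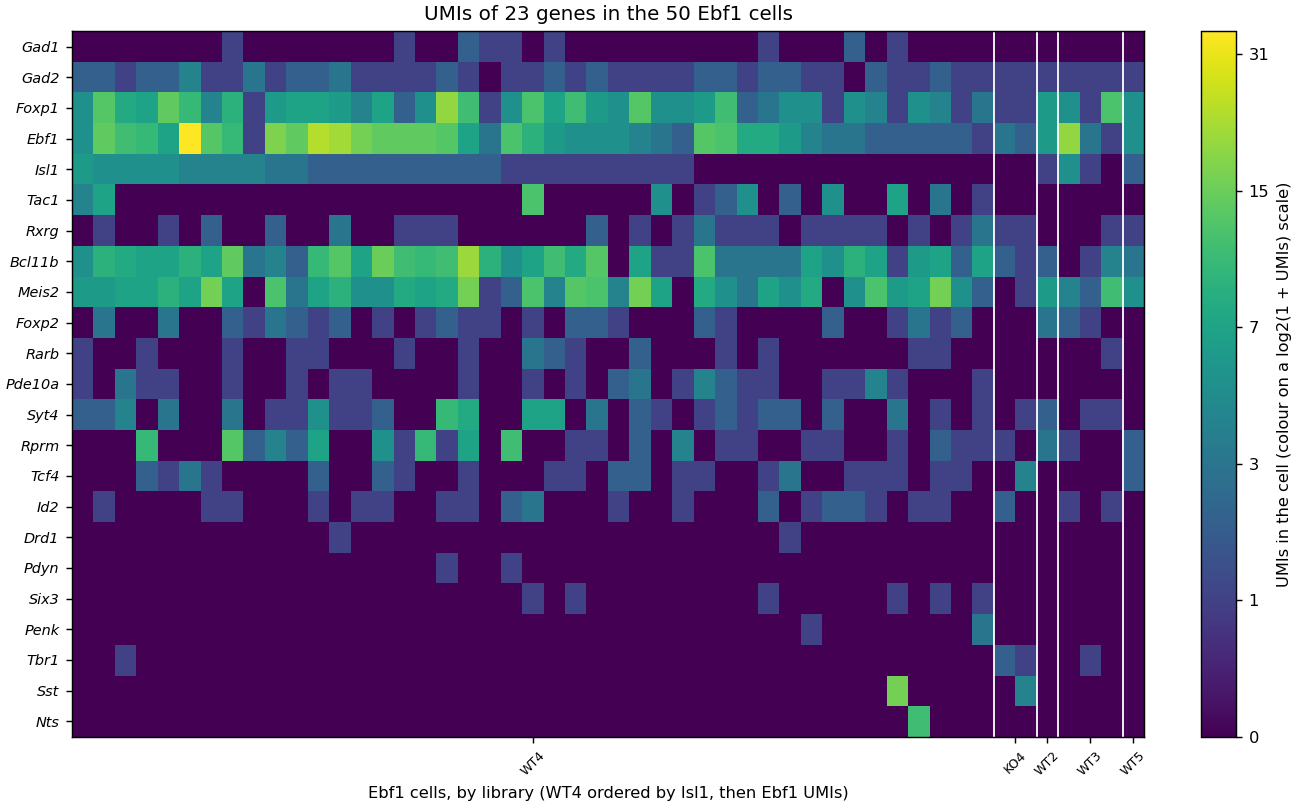
UMIs of 23 genes (rows) in each of the 50 Ebf1 cells (columns), grouped by library and, in WT4, ordered by Isl1 and then Ebf1. The colour runs on a log2(1 + UMIs) scale from 0 to 35 UMIs; Bcl11b and Meis2 fill nearly every WT4 column, Drd1 and Pdyn appear in 2 cells each, and Sst and Nts are each high in a single WT4 column.

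The 43 cells of WT4 held a median of 3760 UMIs (2668 to 8752) and 1784 genes (1260 to 2927). Their mitochondrial share had a median of 3.18%, and the highest haemoglobin share was 0.235%. The genes of the rule are described without a test, since they chose the cells. Ebf1 ranged from 1 to 35 UMIs per cell with a median of 7, and Foxp1 from 1 to 19 with a median of 5. Only 2 cells entered with 1 UMI of Ebf1 and 5 with 1 UMI of Foxp1, and 37 held 2 or more of each. Gad2, which makes GABA, was seen in 41 cells, 23 of them with a single UMI, and Gad1 in 9. In Neurod6+ cells, chosen by Neurod6 alone and of higher median depth (4646 UMIs), 16.8% held a UMI of Gad2 and 8.89% of Gad1. Neurod6 marks cortical glutamatergic neurons, so a single UMI of either Gad gene does not by itself show GABAergic identity. Isl1 was seen in 29 cells, Rxrg in 22 and Tac1 in 12.

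Cells differed in which of these last 3 genes they held. Of the 43, 24 held 1 of them, 18 held 2 and 1 held all 3. Isl1 alone qualified 15 cells, Rxrg alone 6 and Tac1 alone 3. Median Ebf1 in these sets was 10, 2.5 and 2 UMIs, at median depths of 4393, 3530.5 and 3355 UMIs per cell. Median Ebf1 was 8 in the 5 cells with Tac1 and Rxrg only. Isl1 met Rxrg without Tac1 in 10 cells, Tac1 without Rxrg in 3 and both in 1. A cell without Isl1 had to hold Tac1 or Rxrg to be chosen, so the overlap is in part set by the rule. Tac1 was uneven, with a median of 4.5 UMIs in the 12 cells that held it and 12 in the highest. Rxrg was thin, at 1 UMI in 16 of its 22 cells.

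Cells just outside the rule were numerous in WT4. A set of 31 cells met every condition but held no UMI of Gad1 or Gad2, and 95 failed only by a UMI of a barred gene, 35 of them by a single one. A further 47 lacked Ebf1, 14 lacked all of Isl1, Tac1 and Rxrg, and 4 lacked Foxp1. The 31 cells without Gad1 or Gad2 resembled the chosen cells, with 24.8 UMIs of Ebf1, 15.1 of Bcl11b and 13.6 of Meis2 per 10000 UMIs, against 20.8, 16.9 and 16.7. Those with a barred gene were lower for Bcl11b, at 9.42, and higher for the radial glial gene Fabp7, at 11.2 against 4.04.

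Bcl11b and Foxp2, striatal projection neuron genes that had no part in the rule, were more than 2-fold higher in the Ebf1 cells than in all other kept cells. Levels are given as summed UMIs per 10000 summed UMIs of a class, with exact 95% Poisson intervals, for the 43 Ebf1 cells (182999 UMIs) and 3 other classes of WT4. Indirect-type cells (53 cells, 209876 UMIs) held Gad1 or Gad2, Foxp1 and at least 1 of Six3, Penk, Drd2, Adora2a and Gpr6. They held no Ebf1, Isl1 or Tac1 and none of the barred genes. Lhx6 interneurons (45 cells, 166875 UMIs) held Gad1 or Gad2 and Lhx6, without Ebf1, Neurod2, Neurod6, Top2a or Mki67. Neurod6+ cells held at least 1 UMI of Neurod6, a marker of cortical glutamatergic neurons, with no other gene required or barred. They numbered 4501 of the 6173 kept cells. Median UMIs per cell were 3570, 3318 and 4646 in these classes. Of 19 listed striatal projection neuron genes 18 had UMIs in Ebf1 cells, and their summed level was 46.0, against 47.4 in indirect-type cells, 12.3 in Lhx6 interneurons and 17.0 in Neurod6+ cells. Bcl11b and Meis2 supplied 309 and 305 of the 841 UMIs behind that sum. Of the 19 genes, 18 lay outside the rules of Ebf1 and indirect-type cells. The remaining gene helped choose the indirect-type cells, so their 47.4 is in part set by the rule. Against all other kept cells 4 of the 19 had enough UMIs to be compared, and 2 were higher by 2-fold. Over all 1143 genes compared 1.75% were higher by 2-fold.

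Bcl11b (Ctip2), a zinc finger factor required for striatal projection neurons, was found in nearly every Ebf1 cell. It was seen in 42 of 43 Ebf1 cells, with up to 20 UMIs, and its level was 16.9 (15.1 to 18.9). The level was 13.2 in indirect-type cells, 5.39 in Lhx6 interneurons and 2.75 in Neurod6+ cells. Against Lhx6 interneurons the ratio was 3.13 (exact interval 2.47 to 4.0). Meis2, a homeodomain factor of the lateral ganglionic eminence, stood at 16.7 (14.8 to 18.6) in Ebf1 cells, below the 20.8 (18.9 to 22.8) of indirect-type cells and above the 3.78 of Lhx6 interneurons. Neurod6+ cells also carried Meis2, at 9.23. Both genes were thus shared with indirect-type cells.

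Foxp2, the paralogue of Foxp1, was higher in Ebf1 cells than in any of the other classes. Its level was 2.24 (1.61 to 3.04), with UMIs in 24 of 43 cells, against 0.858 (0.508 to 1.36) in indirect-type cells, 0.300 in Lhx6 interneurons and 0.424 in Neurod6+ cells. The ratio to indirect-type cells was 2.61 (1.47 to 4.83). Rarb, the retinoic acid receptor of the striatum, stood at 1.04 (0.62 to 1.62) with UMIs in 34.9% of Ebf1 cells, against 0.619 in indirect-type cells and 0.134 in Neurod6+ cells, of which 5.55% held a UMI. With every cell thinned to 1800 UMIs, Foxp2 was seen in 34.9% of Ebf1 cells, 13.2% of indirect-type cells and 7.11% of Neurod6+ cells, and Rarb in 23.3%, 7.55% and 2.16%.

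Of 19 genes of dopamine and cyclic AMP signalling, 14 had UMIs in Ebf1 cells, and their summed level was 10.8, against 7.39 in indirect-type cells, 3.54 in Lhx6 interneurons and 3.71 in Neurod6+ cells. Of the 19, 18 lay outside the rules of Ebf1 and indirect-type cells, so the sums of these classes are not wholly independent of the rules. Pde10a, a striatal phosphodiesterase, stood at 1.91 (1.33 to 2.66) in Ebf1 cells, 1.10 in indirect-type cells and 0.419 in Lhx6 interneurons. Gnal, the G protein alpha subunit that couples dopamine and adenosine receptors to adenylyl cyclase, stood at 1.37, 1.14 and 0.419 in the same order. The regulators of G protein signalling Rgs2 and Rgs4 were at 1.75 and 1.31 in Ebf1 cells, 1.29 and 0.429 in indirect-type cells and 0.281 and 0.146 in Neurod6+ cells. Pde7b had 9 UMIs in 7 Ebf1 cells, 3 UMIs in indirect-type cells and none in Lhx6 interneurons. Genes typical of the mature striatum were scarce, with 6 UMIs of Ppp1r1b (DARPP-32), 3 of Adcy5, 2 of Rgs9 and none of Pde1b.

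**Figure D3:**
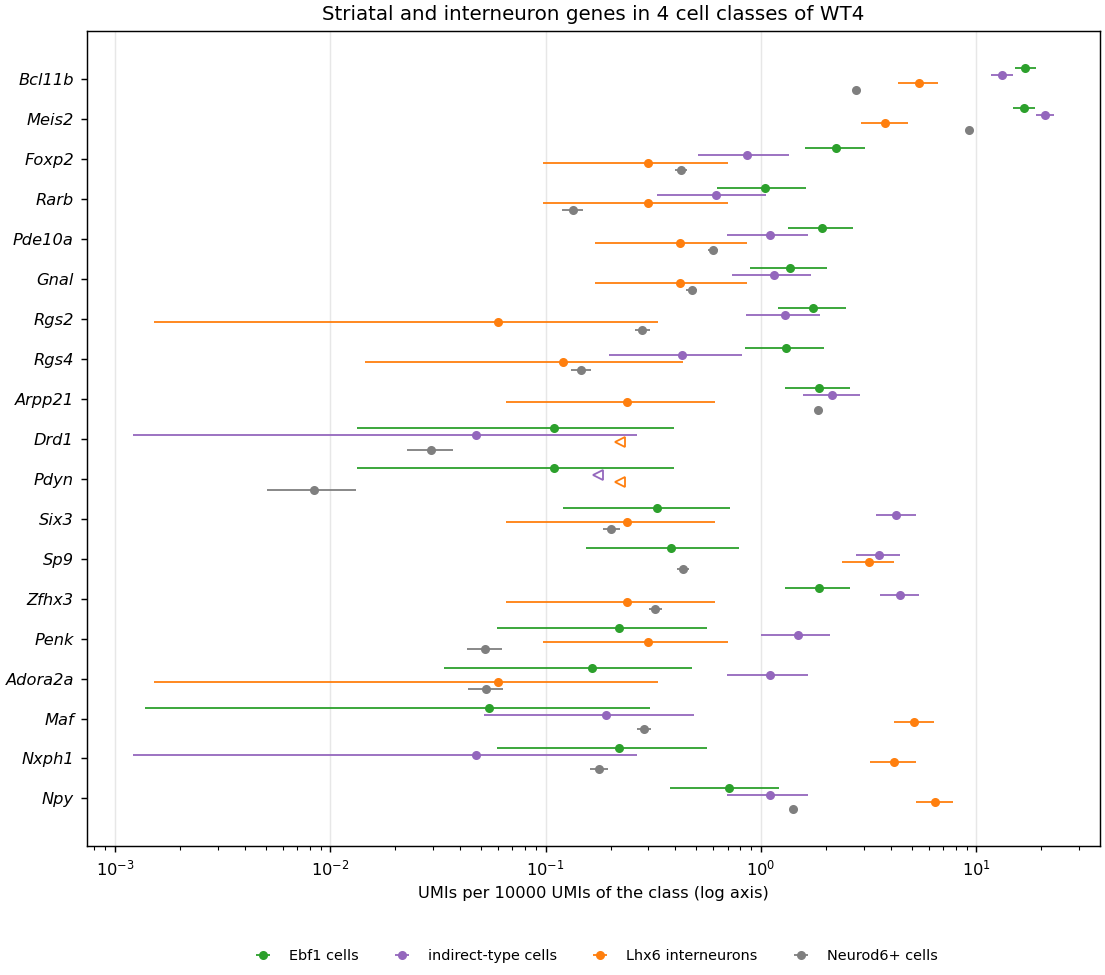
Levels of 19 genes in 4 cell classes of WT4, as UMIs per 10000 UMIs of the class on a log axis. Points are levels and bars exact 95% Poisson intervals of counting error, with open triangles at the upper limit where a class held no UMI. Ebf1 cells (green) and indirect-type cells (purple) lie together for Rarb and Gnal and apart for Sp9. Six3, Penk and Adora2a helped choose the indirect-type cells, so their gap is set by the rule. Maf, Nxph1 and Npy are high in Lhx6 interneurons (orange) only among the 4 classes.

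The genes that define mature direct-pathway neurons were close to absent. Drd1 had 2 UMIs in 2 of 43 Ebf1 cells (4.65%, interval 0.57% to 15.8%), against 1.40% of Neurod6+ cells, and Pdyn also had 2 UMIs in 2 cells. Eya1 and Slc35d3 had none. Of 8 direct-pathway genes listed 7 were in the matrix, and 5 of those had any UMI in Ebf1 cells, 29 UMIs in all, of which 18 belonged to Sfxn1. Sfxn1, a mitochondrial serine carrier, was as high in Neurod6+ cells, at 0.925, as in Ebf1 cells, at 0.984, and stood at 0.191 in indirect-type cells. The name direct-pathway therefore rested on Ebf1, which the rule required, and on Isl1, Tac1 or Rxrg, of which it required 1, and the cells are named here by Ebf1. Drd2 was named in the rule of the indirect-type cells, and its values are not given here.

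Indirect-pathway genes were not at 0. Of 9 listed 7 were in the matrix, all 7 had UMIs in Ebf1 cells, and the 28 UMIs gave a summed level of 1.53, against 0.933 in Neurod6+ cells, 1.39 in all other kept cells and 4.73 in Lhx6 interneurons. The direct-pathway list gave 1.58 in Ebf1 cells. Six3, a homeodomain factor, had 6 UMIs in 6 Ebf1 cells, Penk 4 UMIs in 2 cells and Adora2a 3 UMIs in 3 cells, and 10 of 43 cells held 1 or more of these genes. Since the same genes chose the indirect-type cells, their ratio between the classes is not a result. Sp9, a zinc finger factor which no rule used, had 7 UMIs in Ebf1 cells and 74 in indirect-type cells, a level of 0.383 against 3.53, so that it was 9.22-fold (4.26 to 23.7) higher in the latter. Meis1 had 2 UMIs against 24. Of 8 markers of cholinergic neurons, which also carry Isl1, 5 were in the matrix. Of these, Slc5a7, Slc18a3 and Lhx8 each had no UMI in the 43 cells (up to 0.202 per 10000 by the exact bound), and 1 UMI of Zic4 was the list's total.

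Among genes of at least 50 UMIs, few differed by 2-fold between Ebf1 cells and indirect-type cells. Outside the rules 1217 genes had at least 50 UMIs in the 2 classes together, and their median ratio was 0.981. A gene was counted as higher or lower from a 2-fold ratio of levels on, without a test. By that measure, 13 genes (1.07% of those compared) were higher in Ebf1 cells and 16 (1.31%) were lower. The count depended on that minimum, since with a level of at least 0.1 in either class in its place 2888 of 8889 genes passed 2-fold. The list of 19 striatal projection neuron genes had 5 with enough UMIs, of which 1 (Foxp2) was higher by 2-fold and none lower, with a median ratio of 1.28. Of 17 ganglionic eminence factors 7 could be compared, of which none was higher and 3 were lower (Sp9, Zfhx3 and the Dlx6 antisense RNA Dlx6os1), with a median of 0.686. Of 22 axon guidance genes 5 had enough UMIs and none passed 2-fold, with a median of 1.07.

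Among the largest ratios were those of Syt4 and Ntm. Syt4, a synaptotagmin of dense-core vesicles, had 78 UMIs in Ebf1 cells and 12 in indirect-type cells, a ratio of 7.45 (4.03 to 15). Ntm (neurotrimin), a neuronal adhesion molecule, had 42 and 8, a ratio of 6.02 (2.79 to 14.8). They were not low in every other class: Neurod6+ cells stood at 4.90 for Syt4 and 1.87 for Ntm, beside 4.26 and 2.3 in Ebf1 cells. Lhx6 interneurons lay between, at 0.719 for both genes, and indirect-type cells lowest, at 0.572 and 0.381.

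Further genes past 2-fold were Rprm (reprimo) at 5.16-fold (3.15 to 8.85), the nuclear protein gene Zcchc12 at 3.31-fold (1.91 to 6.02), the growth cone protein Shtn1 (shootin 1) at 3.19-fold, S100a10 at 3.14-fold and the secreted growth factor Ptn (pleiotrophin) at 2.64-fold. Zcchc12 was low elsewhere too, at 0.296 in Neurod6+ cells against 2.84. Gap43, the growth cone phosphoprotein, stood at 11.8 (10.3 to 13.5) in Ebf1 cells and 7.24 (6.14 to 8.49) in indirect-type cells, a ratio of 1.63 that stayed under 2-fold. Crabp1, a retinoic acid binding protein, had 16 UMIs in 7 Ebf1 cells, and the retinoic acid synthesizing enzyme Aldh1a3 had 9 UMIs, 8 of them in 1 cell.

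Among the 16 genes lower in Ebf1 cells, Sp9 was followed by Sox9, a factor of neural progenitors and glia. It had 9 UMIs against 47 in indirect-type cells and was 4.55-fold (2.21 to 10.6) higher in the latter. Nnat (neuronatin) stood at 24.4 in Ebf1 cells and 61.5 in indirect-type cells, a ratio of 0.397 (0.355 to 0.442). Gucy1a3, a subunit of the nitric oxide receptor, stood at 3.50 against 8.62, and the calmodulin regulator Pcp4 at 3.66 against 8.15. Zfhx3, a homeodomain zinc finger factor, stood at 1.86 against 4.43, and Nfib, a nuclear factor I gene, at 1.91 against 4.43. Ccnd2, the G1 cyclin, stood at 1.09 against 2.48.

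**Figure D4:**
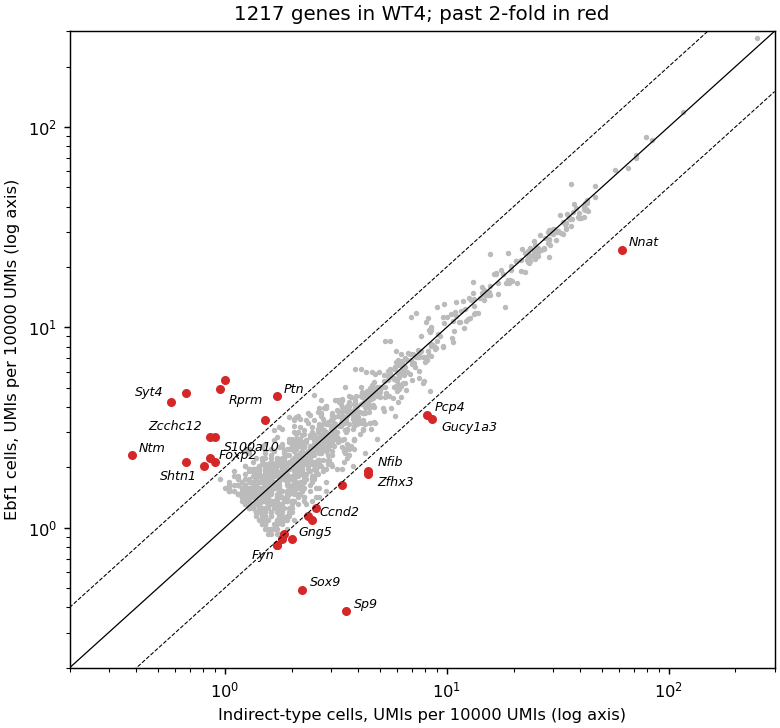
Level of each of 1217 genes in the 53 indirect-type cells (horizontal) and the 43 Ebf1 cells (vertical) of WT4, as UMIs per 10000 UMIs on log axes. The solid line marks equal levels and the dashed lines 2-fold; 13 genes in red lie above and 16 below, among them Syt4, Ntm and Rprm above and Sp9, Sox9 and Nnat below.

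Lhx6 interneurons were further away. Of 1118 genes compared, with a median ratio of 0.960, 29 (2.59%) were higher in Ebf1 cells and 41 (3.67%) were lower. Higher were Syt4 (5.93-fold), Pcp4 (5.55-fold), the neural proteoglycan Cspg5 (5.47-fold), Rprm (4.83-fold) and Meis2 (4.41-fold). Among the lower genes was the interneuron factor Maf, with 1 UMI against 86 (ratio 0.0106, interval 0.000265 to 0.0607). The adhesion ligand Nxph1 had 4 UMIs against 69, and neuropeptide Y (Npy) 13 against 107. Of the 7 markers of interneurons of the medial ganglionic eminence, 5 were compared and all 5 were lower by 2-fold. The homeobox genes Dlx1 and Dlx2 were also lower, at 0.437 against 2.64 and 0.328 against 3.18. Gap43 (3.08-fold) and the ephrin receptor Epha5 (0.193-fold) were the axon guidance genes past 2-fold.

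Against all other kept cells of WT4, 1143 genes could be compared, of which 20 (1.75%) were higher and 31 (2.71%) lower. Zcchc12 led at 7.98-fold (5.92 to 10.6), followed, among others, by Bcl11b at 5.26-fold, Foxp2 at 4.33-fold and the imprinted RNA Meg3 at 3.95-fold, with 51.7 UMIs per 10000 against 13.1. The choroid plexus gene Ttr was lowest, at a ratio of 0.122, and Tcf4 was next. The nuclear factor I genes Nfix and Nfib were at ratios of 0.143 (0.0780 to 0.239) and 0.189 (0.132 to 0.263), and the bHLH factor Bhlhe22 at 0.147. Of these 6130 other cells 4501 held Neurod6, which the rule barred. For this comparison the UMIs of the other cells were scaled to the depth of the Ebf1 cells before the minimum of 50 was applied.

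Tcf4 itself was low in the Ebf1 cells of the wildtype library. It had 30 UMIs in 21 of 43 cells, with a median of 0 and at most 3 per cell, and its level was 1.64 (1.11 to 2.34). The level was 3.38 (2.64 to 4.27) in indirect-type cells, 15.2 (13.4 to 17.1) in Lhx6 interneurons, 13.5 (13.4 to 13.7) in Neurod6+ cells and 12.5 in all other kept cells. Other kept cells were 7.60-fold (5.32 to 11.3) higher than Ebf1 cells. The ratio to indirect-type cells was 0.485 (0.305 to 0.752), with intervals of level that did not meet. The 31 cells without Gad1 or Gad2 were alike, at 1.69, and the 95 with a barred gene stood at 6.81. With the rule applied after thinning, the ratio of the cells chosen to other cells was 0.369 in place of 0.132. That choice can admit cells that held a barred gene before thinning.

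The same direction was seen in the WT3 library. Its 3 Ebf1 cells held no Tcf4 UMI among 8588, which allows up to 4.30 per 10000 (exact upper bound), where its kept cells stood at 12.6. At that level 10.8 UMIs would be expected. The WT2 cell also held none, where 2.42 would be expected. The WT5 cell held 2 UMIs (2.26 expected) and the KO4 cells together 4 UMIs (3.81 expected), all 4 in the cell that also held Sst. These few cells do not allow a comparison of Tcf4 between WT and KO within Ebf1 cells.

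The remaining E-protein and Id genes had few UMIs. TCF4 is an E-protein, a bHLH factor that pairs with proneural factors and is held off DNA by Id proteins. The other E-protein genes Tcf12 and Tcf3 had 6 and 2 UMIs in Ebf1 cells, levels of 0.328 and 0.109, against 0.750 and 0.504 in Neurod6+ cells. Id2 had 25 UMIs, a level of 1.37 (0.884 to 2.02), against 1.14 in indirect-type cells, 4.07 in Lhx6 interneurons and 9.40 in Neurod6+ cells. Of the 7 E-protein and Id genes, 2 were compared with other kept cells and both, Tcf4 and Id2, were lower by more than 2-fold. Over all 1143 genes compared 2.71% were lower by 2-fold. Summed over the list the level was 3.72 in Ebf1 cells, 6.05 in indirect-type cells, 22.5 in Lhx6 interneurons and 25.0 in Neurod6+ cells.

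**Figure D5:**
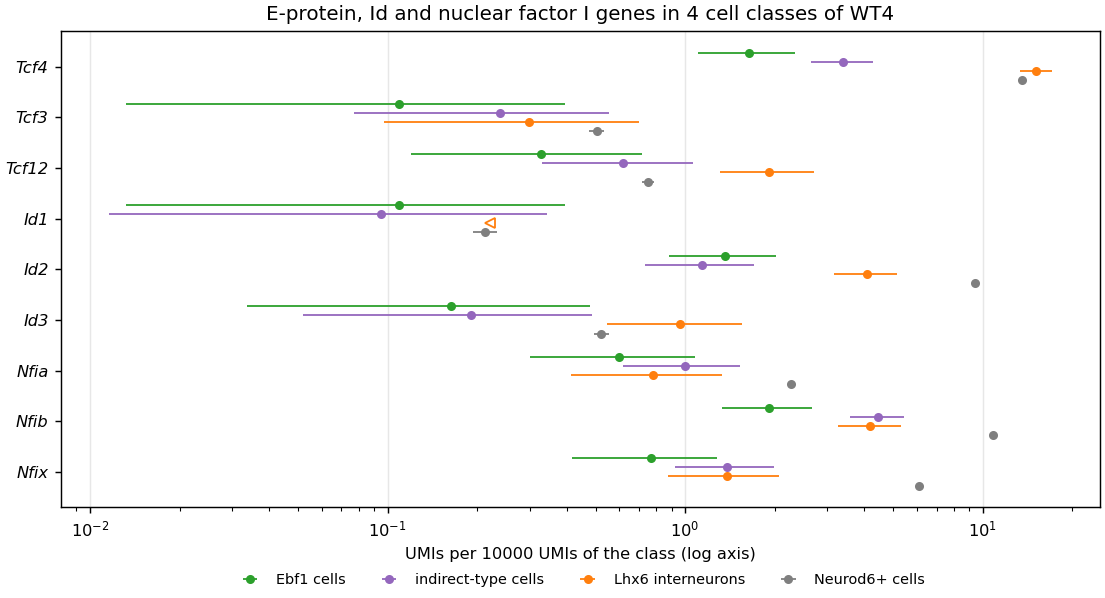
Levels of E-protein, Id and nuclear factor I genes in 4 cell classes of WT4, as UMIs per 10000 UMIs of the class on a log axis, with exact 95% Poisson intervals of counting error and an open triangle at the upper limit for a class without UMIs. Ebf1 cells and indirect-type cells lie to the left of Neurod6+ cells for Tcf4, Id2 and Nfib, with Tcf4 at 1.64 and 3.38 against 13.5.

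Within the Ebf1 cells of WT4, those with and without Isl1 differed in several genes, a division chosen after the values were seen. The 29 cells with Isl1 held 130788 UMIs (median 4393 per cell) and the 14 without it 52211 (median 3530.5). Cells without Isl1 could enter only by Tac1 or Rxrg. Of the genes of the rule, which are described without a test, Ebf1 stood at 23.9 with Isl1 and 13.0 without. Foxp1 stood at 16.4 and 10.7. The intervals that follow cover counting error of summed UMIs, not the spread between cells. Rprm stood at 6.19 with Isl1 and 1.72 without (ratio 3.59, interval 1.80 to 8.14) and the neurite protein Islr2 at 5.73 and 2.3. Rprm was detected in a like share of both sets, 55.2% and 57.1% of cells, so the gap lay in the UMIs per positive cell. Its highest cells held 13, 11, 10 and 10 of the 90 UMIs, and all of these held Isl1, so a few cells weighed heavily in the ratio. Gucy1a3 was lower, at 2.68 against 5.55, and Penk and Adora2a, with 4 and 3 UMIs in all, were seen in cells without Isl1. Six3 had 2 UMIs in cells with Isl1 and 4 in cells without it. Bcl11b (17.9 and 14.4), Meis2 (16.5 and 17.0), Foxp2 (2.22 and 2.3) and Tcf4 (1.53 and 1.92) had ratios whose intervals took in 1.

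The 12 cells with Tac1 carried less Rprm than the other 31, at 1.34 against 6.34 (ratio 0.212, interval 0.0827 to 0.457), though 50% and 58.1% of cells held it. The cells with 10 to 13 UMIs of Rprm held no Tac1. The split by Tac1 is not independent of the one by Isl1, since the rule required 1 of the 3 markers and 4 of the 12 cells held Isl1. Bcl11b in the cells with Tac1 was at 12.1 against 18.8. Peptides of other neurons came from single cells: 1 cell held all 16 UMIs of Sst, together with 7 of Tac1, and another held all 11 UMIs of neurotensin (Nts). Npy had 13 UMIs in 8 cells, a level of 0.71 that lay below the 1.41 of Neurod6+ cells.

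Most markers of other cell types left few transcripts in the 43 cells. Since the rule barred Neurod2, Neurod6, Top2a, Mki67 and Lhx6, low glutamatergic, cycling and interneuron levels were in part set by the choice of cells. Neurod6+ cells were themselves chosen by a barred gene. The 7 glutamatergic markers gave 11 UMIs, a summed level of 0.601 against 4.96 in Neurod6+ cells, with Slc17a7 and Eomes at 0. The 6 endothelial and mural markers gave 2 UMIs and the 4 microglial markers 1. Of the 6 glial markers 5 had UMIs, 82 in all, and 74 of these were Fabp7 in 30 cells, at a level of 4.04 against 11 in Neurod6+ cells. The 5 further cycling markers gave 24 UMIs, a level of 1.31 against 4.84. The interneuron markers gave 37 UMIs in 13 cells, up to 17 in the cell with Sst, with Nkx2-1 at 0 and Lhx6 at 0 by the rule. The part of these transcripts in the results was not tested.

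Smaller gene groups were described by their summed levels, since few of their members had enough UMIs to be compared. The 4 genes of GABA handling beyond Gad1 and Gad2 gave 1.04 in Ebf1 cells, 1.72 in indirect-type cells and 2.64 in Lhx6 interneurons, with the vesicular transporter Slc32a1 at 10 UMIs. They gave 0.665 in Neurod6+ cells and 0.867 in all other kept cells. Genes of striosomes, the patch compartment of the striatum, numbered 8 and gave 2.19, against 3.57 in indirect-type cells. Those of the matrix compartment numbered 5 and gave 2.62 against 3.72. Oprm1, the mu opioid receptor gene that marks striosomes, had 3 UMIs in 3 Ebf1 cells and none in indirect-type cells or Lhx6 interneurons. The 12 neuronal genes that the study names gave 79.4 in Ebf1 cells, 77.4 in indirect-type cells and 83.4 in Lhx6 interneurons. They gave 116 in Neurod6+ cells and 106 in all other kept cells. The list includes Neurod2, which the rule barred. Of these, 10 were compared with indirect-type cells, where Ptn was higher and Nfib lower by 2-fold. Over all genes compared 1.07% were higher and 1.31% lower. Against Lhx6 interneurons 11 were compared, where Ptn was higher and Dcx, Nfib, Epha5 and Id2 lower (2.59% and 3.67% over all genes). Against other kept cells 11 were compared, where none was higher and Nfib, Epha5 and Id2 were lower (1.75% and 2.71% over all genes).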

How the data were processed

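Neocortical cells were captured by the authors with the Chromium Single Cell 3′ v2 kit and sequenced on an Illumina HiSeq instrument. Per the study's methods, reads were aligned to mm10 (GRCm38) with Cell Ranger and cells of 1000 to 5000 genes, 1800 to 10000 UMIs and under 6% mitochondrial transcripts were kept. Submitters' processing notes name Cell Ranger 2.1.0 and Seurat 2.3.4. Files deposited by the authors for WT4, WT5, KO4 and KO5 hold UMI counts per gene and cell. Those deposited for WT1, WT2, WT3, KO1 and KO2 hold natural log values, ln(1 + UMIs per 10000), made by the authors from the counts. Whole UMIs were recovered from 100% of these values within 1e-06. A gene not listed for a library was taken as 0, and doublets were not called.

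The Ebf1 cells, the gene lists and the comparison classes were chosen with earlier results of these data known. Cells were selected in Python 3.11.15 with numpy 2.4.6, scipy 1.17.1 and pandas 2.3.3. Total kept UMIs ranged from 337698 (WT1) to 29573654 (WT4). Levels are summed UMIs per 10000 with exact 95% Poisson intervals, shares carry Clopper-Pearson intervals, and ratios carry exact conditional binomial intervals, which cover counting error only. Shares were compared between WT2, WT3, WT4 and KO4, KO5, taken as the libraries the study used, by a two-sided exact permutation test. Fits of genotype and of cell class with the library as the replicate had been planned, but a minimum of 5 Ebf1 cells per library was met by WT4 alone. No model was fitted for them, and class ratios in WT4 have no test. Named genes were those of the lists and, in each class contrast, the 10 with the largest ratios each way among genes outside both rules with at least 50 UMIs. Some of these genes are not reported here. Other genes were named after their values were seen. The code was tested on simulated data. Positions are from GENCODE vM21.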

Additional observations from a re-analysis of the deposited data

Results flagged for a closer look

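The share of Ebf1 cells among kept cells in WT4, 0.697%, stood far from those of the other libraries labelled WT, of which WT3 at 0.186% was nearest. The gap was 0.734 of the range over the 5 libraries, past the critical value of Dixon's test. As a share of postmitotic Gad1 or Gad2 cells WT4 did not stand apart.

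Among the 4 libraries labelled KO, KO4 held the only Ebf1 cells, so its share of 0.0476% was set against 3 libraries at 0. The same cells gave 6.45% of the postmitotic Gad1 or Gad2 cells of KO4 against 0 in the others, which held 1 such cell in KO1, 2 in KO2 and 25 in KO5. Libraries with so few of these cells could hardly give a value above 0, so little can be read from this gap. Both values rest on 2 cells with 1 UMI of Foxp1 each. Of 6 groups of libraries tested in this way, chance would flag about 1 in 20.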

How the results depend on the processing

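The share of Ebf1 cells was lower in KO under every alternative tried, 1 of which took postmitotic Gad1 or Gad2 cells as denominator. None passed 0.05 in the exact permutation test, but only the comparison of all libraries could have. The smallest p of that test was 0.1 for 3 against 2 libraries, 0.167 for 2 against 2 and 0.25 for 3 against 1. Leaving out 1 library at a time, KO minus WT ranged from -0.417 to -0.111 percentage points, the latter without WT4. The exact permutation p was 0.3 under 5 alternatives, 0.238 with all libraries as labelled, 0.333 or 0.5 without 1 library, 0.7 without cells over 0.1% haemoglobin UMIs and 1 with at least 2 of Isl1, Tac1 and Rxrg required.

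Counts of genes past 2-fold depended on the filter and the averaging, since genes of few UMIs pass it readily. Against indirect-type cells the 29 genes became 9 with a pseudocount of 1 on the mean over cells, 15 with 0.5, 2888 with a level of at least 0.1 in place of the UMI minimum, 8 with the rules applied after thinning to 1800 UMIs and 232 with a minimum of 20 UMIs. Against Lhx6 interneurons the 70 became 42 with a pseudocount of 1, 3437 with the level filter, 8 after thinning and 328 with 20 UMIs. Against other kept cells the 51 became 19, 2406, 5 and 197 in the same order, and 23 with at least 2 of the 3 markers. The ratio of Tcf4 in Ebf1 cells to other kept cells, 0.132, was 0.0669 with at least 2 markers, 0.369 with the rule applied after thinning and 0.211 with the Ebf1 cells thinned after the rule. The balance of higher and lower genes also turned. Against indirect-type cells 13 higher and 16 lower became 5 and 4 with a pseudocount of 1, 9 and 6 with 0.5, 1711 and 1177 with the level filter, 118 and 114 with 20 UMIs, and 1 and 7 after thinning. Against Lhx6 interneurons 29 and 41 became 6 and 2 after thinning, and against other kept cells 20 and 31 became 3 and 2. The cause was not tested. The ratio of Tcf4 stayed below 1 throughout.

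No paired analysis was possible because the compared groups share 1 replicate number and a single library held 5 or more Ebf1 cells. For that reason the planned fits with limma, edgeR and DESeq2, and class contrasts without 1 library or over all libraries, were not run.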
